A study of Mus musculus with 4 samples.

Results

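The lysosomal proton pump, cathepsin and LAMP genes were examined in mouse spermatogonial stem cell (SSC) cultures. They were taken from the deposited count table by gene symbol: the Atp6v1 and Atp6v0 subunit genes of the vacuolar proton pump (V-ATPase), the cathepsins A, B, C, D, F, H, K, L, O, S, W and Z, and Lamp1 to Lamp3. The symbols gave 37 genes of 55421 in the table. They comprised 13 V1 subunit genes, 9 V0 subunit genes, 10 cysteine cathepsins, the serine carboxypeptidase gene Ctsa, the aspartic protease gene Ctsd and 3 LAMP genes.

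The V-ATPase is a rotary proton pump. Its cytosolic V1 sector hydrolyses ATP, its membrane V0 sector carries protons into the lumen, and the sectors can separate and rejoin. Cathepsins are proteases of the acid lysosomal lumen, and LAMP1 and LAMP2 are the main glycoproteins of the lysosomal membrane. Autophagosomes deliver their contents to lysosomes, and transcription factors of the MiT/TFE family, which bind short E-box elements, are known to drive many lysosomal genes when nutrients are scarce.

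All libraries came from CD1-background SSC cultures that were started, per the study's methods, from testes of pups 6 days old and kept on irradiated embryonic fibroblasts of CF1 mice with GDNF and bFGF. There were 2 libraries of cultures in complete SSC medium (Veh) and 2 of cultures in a nutrient restriction medium, mostly Earle's balanced salt solution without amino acids, with added retinoic acid (NRRA), treated for 2 days. NRRA joins nutrient restriction and retinoic acid, and its salt solution also diluted the GDNF, bFGF and serum of the SSC medium. The parts of these changes cannot be told apart. Because the feeder cells were in the culture, a level here is that of the mixed culture: fewer cells of a type and less RNA per cell cannot be told apart in bulk libraries. The study describes its sequencing libraries as 2 independent biological replicates a group, whereas the labels do not tie a library to its animals or culture, and the p-values measure the spread between these libraries.

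NRRA was used in the study to start meiosis in culture. The comparison gives the RNA levels of lysosomal genes after this treatment, of which nutrient restriction is a part. Library totals ran from 28022265 to 31604769 counts, and 3 counts were worth 0.092 to 0.11 counts per 1000000 of the scaled library (CPM). The treatment check, the retinoic acid target Stra8, read 9.61 and 10.1 CPM in Veh and 1862 and 1851 CPM in NRRA. Of 18 fibroblast markers, 2 were higher in NRRA and 14 lower, where 27.9% of all genes tested were higher and 28.4% lower. The median log2 fold change of these markers was -0.27, with Pdgfra highest (0.98) and Timp1 lowest (-1.52). Their summed share of a library was 1.01% and 0.999% for Veh and 0.834% and 0.814% for NRRA, with none at 0. Of 12 germ cell markers, 3 were higher, among them Sall4 (0.84), and 8 lower, with Id4 lowest (-3.32). Their summed level was 2935 and 3002 CPM in Veh and 2408 and 2412 CPM in NRRA. This list mixes markers of germ cells in general with those of undifferentiated spermatogonia such as Id4, so its sum joins cell number and state. The part of these shifts in the results below was not tested.

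The genes did not move as a block. Of the 32 genes that passed the filter on low counts, 8 were higher in NRRA, 13 were lower and 11 were not called (adjusted p under 0.05 in the quasi-likelihood test of edgeR, p-values corrected by Benjamini-Hochberg across the 20232 genes in the fit). The 21 called genes were 65.6% of those tested, where 56.4% of all genes were called, 27.9% higher and 28.4% lower. Most changes were small: 26 of the 32 had an absolute log2 fold change under 0.5. The 5 called genes past that size were the V1 subunit genes Atp6v1c2, Atp6v1b2 and Atp6v1g2 and the cathepsin genes Ctsf and Ctsw, where 27.7% of all genes were called and past it. Only Ctsf and Atp6v1c2 changed at least 2-fold, both upward, where 13.3% of all genes did. The median absolute log2 fold change was 0.18, against 0.33 over all genes tested. Among genes with a mean level of at least 32 CPM it was 0.14 for 22 of these genes and 0.23 for all, and 15 of the 22 were called where 76.4% of all such genes were.

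In summed level the genes reached 3711 and 3795 CPM in Veh and 3676 and 3622 CPM in NRRA, so rises and falls nearly offset each other. With unscaled library sizes these sums were 3595 and 3680 CPM in Veh and 3792 and 3736 CPM in NRRA, which reverses their order. In 29 of the 32 the NRRA libraries did not overlap the Veh libraries, against 76.7% of all genes. DESeq2 called 5 of the 32 higher and 8 lower, where it called 39.7% of all genes, and a test for changes beyond 1.2-fold (glmTreat) called 2 higher and 6 lower, where it called 32.2%. With library sizes taken as they are, without TMM scaling, the split turned from 8 higher and 13 lower to 12 higher and 8 lower. The median log2 fold change then moved from -0.069 to 0.021, so no direction can be given to the genes as a whole.

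**Figure D1:**
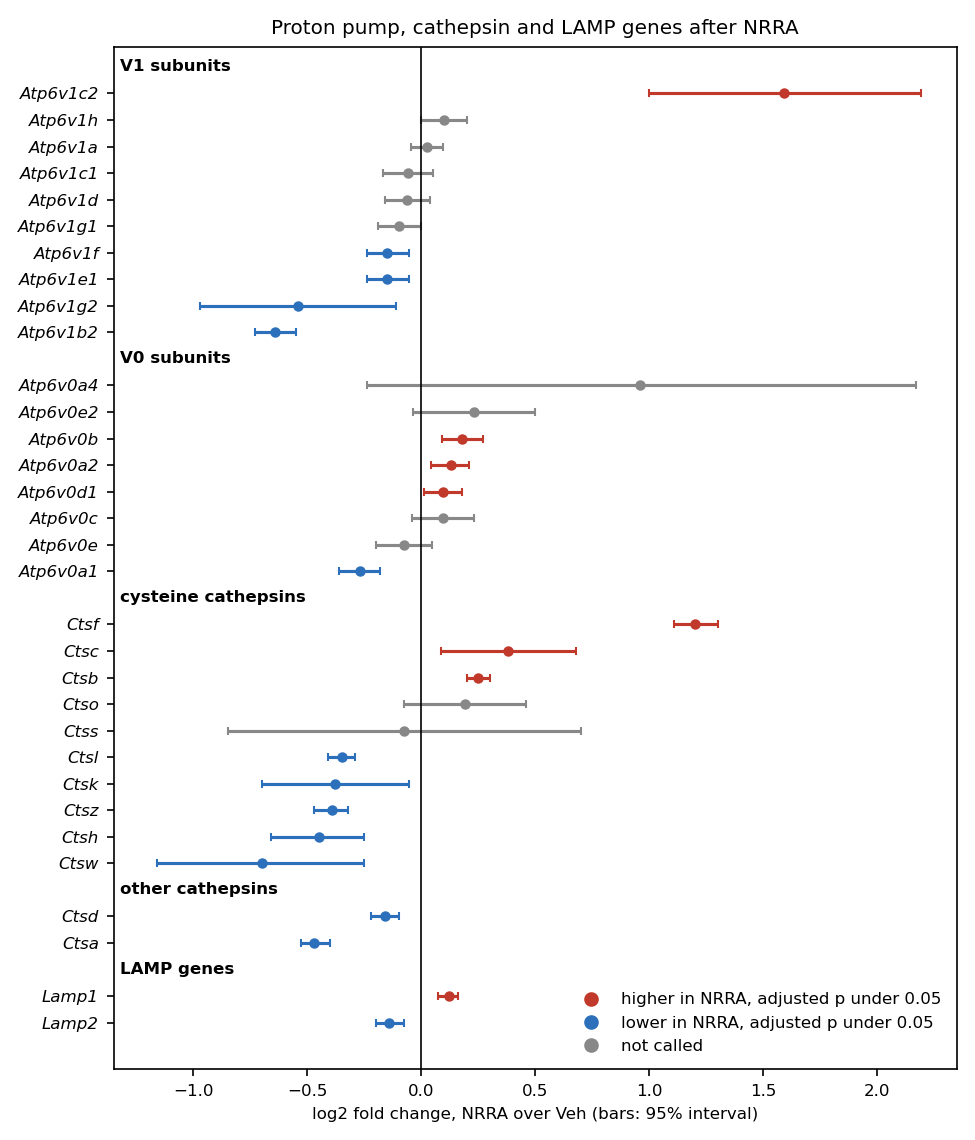
The log2 fold change of each of the 32 tested genes, NRRA over Veh, is plotted with its 95% interval, grouped by role and coloured by call. Ctsf (1.2) and Atp6v1c2 (1.59) stand to the right, Atp6v1b2 (-0.64) and Ctsw (-0.70) to the left, and most others lie within 0.5 of zero.

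Promoter sequence was available in a RefSeq table (build GRCm38.p6, from 250 bases before to 50 after each gene's start) for 28 of the 37 genes, as 32 promoters. The E-box CACGTG, which reads the same on both strands, was in 9 of the 32, against 7.15% of the 32851 promoters in the table. The longer TCACGTG, searched on both strands and overlapping the E-box in each match, was in 7 of the 32 and in 3.77% of all. The full palindrome of the CLEAR element, which adds GT before and AC after the E-box as its outer letters, was in 0 of the 32 and in 0.326% of all. A match is a description of letters and not evidence of binding.

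The 9 genes with an E-box went in both directions. Atp6v0b, Atp6v0d1, Ctsf and Lamp1 were higher in NRRA, Ctsa, Ctsd and Ctsl were lower, and Atp6v0e and Atp6v1a were not called. Of the 19 genes with a promoter but no E-box, 2 were higher, 7 lower, 6 not called and 4 not tested. A promoter is shown for each kind of outcome, with each E-box in capitals: Lamp1, which had the most matches (chr8:13158911-13159210, plus strand), Ctsf, the rise with the smallest p (chr19:4854915-4855214, plus strand), Ctsa, which fell (its downstream start, chr2:164833523-164833822, plus strand), and Atp6v1a, which was not called (chr16:44139210-44139509, minus strand).
Lamp1: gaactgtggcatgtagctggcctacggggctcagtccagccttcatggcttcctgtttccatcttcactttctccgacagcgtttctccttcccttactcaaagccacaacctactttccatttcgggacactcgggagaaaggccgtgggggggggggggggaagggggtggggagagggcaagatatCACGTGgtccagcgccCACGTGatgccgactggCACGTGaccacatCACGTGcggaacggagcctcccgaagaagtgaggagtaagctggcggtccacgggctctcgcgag
Ctsf: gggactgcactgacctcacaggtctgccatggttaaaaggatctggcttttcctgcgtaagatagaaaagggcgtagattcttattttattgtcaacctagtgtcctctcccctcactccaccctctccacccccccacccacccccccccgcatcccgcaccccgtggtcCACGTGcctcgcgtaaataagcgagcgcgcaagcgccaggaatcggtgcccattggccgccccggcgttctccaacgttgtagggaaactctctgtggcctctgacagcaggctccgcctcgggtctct
Ctsa: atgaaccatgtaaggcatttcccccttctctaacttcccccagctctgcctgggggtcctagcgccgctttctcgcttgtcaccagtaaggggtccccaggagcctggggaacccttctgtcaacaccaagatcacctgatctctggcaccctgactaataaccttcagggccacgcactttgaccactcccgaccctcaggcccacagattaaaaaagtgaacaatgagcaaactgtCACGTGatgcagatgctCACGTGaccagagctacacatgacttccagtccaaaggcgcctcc
Atp6v1a: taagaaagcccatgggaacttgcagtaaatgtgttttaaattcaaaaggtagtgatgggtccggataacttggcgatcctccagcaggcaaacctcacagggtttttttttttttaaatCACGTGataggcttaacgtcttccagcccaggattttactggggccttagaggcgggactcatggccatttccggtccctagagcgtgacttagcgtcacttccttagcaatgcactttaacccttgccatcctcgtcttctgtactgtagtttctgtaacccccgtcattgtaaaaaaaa
Lamp1 carried 4 E-boxes within the last 61 bases before its start, Ctsa 2 around its start, and Ctsf and Atp6v1a 1 each, at 79 and 131 bases before theirs.

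**Figure D2:**
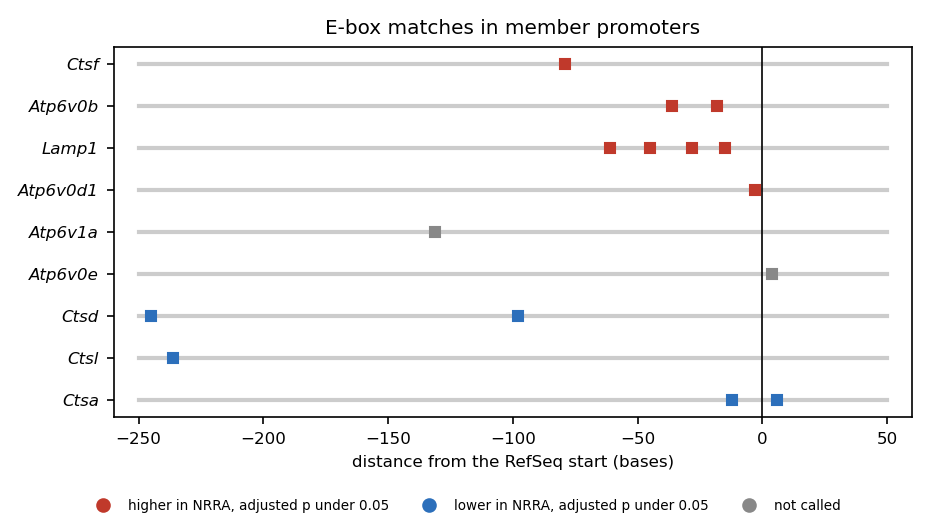
Squares mark the first base of each E-box match from 250 bases before to 50 bases after the RefSeq start, for the 9 genes with a match, ordered by log2 fold change and coloured by call. Genes that were higher, lower and not called all carry matches, and 4 of them fall in the Lamp1 promoter.

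In the V1 sector 1 of the 10 tested subunit genes was higher, 4 were lower and 5 were not called. Thus 50% were called, where 56.4% of all genes were. The sector's core is a ring of alternating A subunits, which hydrolyse ATP, and B subunits. Atp6v1a, the only gene for A, read 141 and 148 CPM in Veh and 149 and 145 CPM in NRRA. These ranges overlap, and the log2 fold change was 0.024 (95% interval -0.047 to 0.096, adjusted p = 0.58 by edgeR). With library sizes as they are it was called higher (0.11, adjusted p = 0.00633, edgeR).

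Atp6v1b2, the broadly expressed B subunit gene (chr8:69088646-69113711, plus strand, build mm10), was lower in NRRA. It read 119 and 135 CPM in Veh and 82.7 and 80.4 CPM in NRRA. Both NRRA libraries lie below both Veh libraries, with a log2 fold change of -0.64 ± 0.046 (SE; adjusted p = 4.00e-12, edgeR). It was the largest fall among the 22 genes with a mean of at least 32 CPM, and it was called under each of the 11 alternatives, at -0.72 to -0.55. Per 100 counts of Atp6v1a there were 84.5 and 90.8 counts of Atp6v1b2 in Veh and 55.4 and 55.4 in NRRA. The B1 gene Atp6v1b1, known from kidney and epididymis, was read 1 and 0 times in the Veh libraries and 6 and 0 times in the NRRA libraries, so B2 made up at least 99.7% of B transcripts per length in each library.

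Atp6v1c2 encodes a tissue-restricted form of C, the subunit that clamps the stalks and leaves when the sectors separate (chr12:17284721-17329359, minus strand). It read 0.626 and 0.974 CPM in Veh, from 17 and 29 counts, and 2.58 and 2.29 CPM in NRRA, from 84 and 69 counts. All NRRA values exceed all Veh values, and the log2 fold change was 1.59 ± 0.29 (SE; adjusted p = 3.58e-05, edgeR). Without 1 Veh library it was 1.32 or 1.95. The common form Atp6v1c1 ran from 44.8 to 48.3 CPM over the libraries and was not called (log2 fold change -0.058). The C2 form rose from 3.39% and 4.94% of C transcripts per length in Veh to 12.6% and 11.6% in NRRA. With the length of the principal transcript, a choice added after the data were seen, these shares were 1.79%, 2.63%, 6.99% and 6.4%, in the same order of libraries. C1 thus remained the main form in both groups.

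The stalk genes moved little. Atp6v1e1 and Atp6v1g1 encode the peripheral stalks, and Atp6v1d and Atp6v1f the central rotor. Atp6v1f had the highest level per length of the V1 genes and read 68.7 and 72.8 CPM in Veh and 63.7 and 64 CPM in NRRA, a log2 fold change of -0.15 (adjusted p = 0.0076, edgeR). Atp6v1g1, the next, read 65.8 and 67.3 CPM in Veh and 62.5 and 62 CPM in NRRA and was not called (-0.096, adjusted p = 0.0756, edgeR). In both genes the NRRA libraries lie below the Veh libraries. About 25.1% of the longest transcript of Atp6v1f and 31.5% of that of Atp6v1g1 are nearly identical to another locus, so the counts of both genes are uncertain. Atp6v1e1 fell by 0.15 on the log2 scale (adjusted p = 0.00799, edgeR), and Atp6v1d was not called (-0.061). The Atp6v1f and Atp6v1e1 calls were lost with DESeq2 (adjusted p = 0.0937 and 0.1) and with library sizes as they are (adjusted p = 0.29 and 0.308, edgeR).

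Atp6v1g2 encodes a form of G best known from neurons (chr17:35233660-35238767, plus strand). It read 3.54 and 2.85 CPM in Veh and 2.09 and 2.29 CPM in NRRA. The groups do not overlap, and the log2 fold change was -0.54 ± 0.21 (SE; adjusted p = 0.0289, edgeR). The call was lost without Veh replicate 1 (-0.39, adjusted p = 0.231, edgeR) or NRRA replicate 1 (-0.47, adjusted p = 0.128, edgeR), and also with DESeq2 (adjusted p = 0.223) and with library sizes as they are (adjusted p = 0.0665, edgeR). G2 made up 2.37% and 1.88% of G transcripts per length in Veh and 1.49% and 1.64% in NRRA.

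The remaining V1 genes were not called in the reported fit or had too few counts. Atp6v1h, a regulatory subunit that holds ATP hydrolysis in check in free V1, had a log2 fold change of 0.10 (adjusted p = 0.0918, edgeR). It was called with a replicate block (adjusted p = 0.0493, edgeR), with library sizes as they are (0.19, adjusted p = 0.00204, edgeR) and without Veh replicate 2 (0.19, adjusted p = 0.00257, edgeR). Without Veh replicate 1 it was 0.02 (adjusted p = 0.785, edgeR), so the value rests on the Veh library kept. Atp6v1e2, the testis form of E known from the sperm acrosome, was read 0 and 1 times in the Veh libraries and 1 and 0 times in the NRRA libraries. The renal G form Atp6v1g3 had 0 counts in all 4 libraries, which allows a level of up to 0.092 to 0.11 CPM.

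In the V0 sector 3 of the 8 tested genes were higher, 1 was lower and 4 were not called, a share called of 50% against 56.4% of all genes. Atp6v0d1, which couples the rotor to the membrane ring and had the highest level per length of merged exons in the sector (below Atp6v0b by the principal transcript), read 100 and 100 CPM in Veh and 103 and 112 CPM in NRRA. Its log2 fold change of 0.096 passed narrowly (adjusted p = 0.0466, edgeR) and rested on NRRA replicate 2, without which it was 0.037 (adjusted p = 0.592, edgeR). DESeq2 did not call it (adjusted p = 0.181). Atp6v0b, a proton-binding subunit of the ring, read 76.7 and 82.4 CPM in Veh and 90.5 and 89.7 CPM in NRRA. There the groups are apart, with a log2 fold change of 0.18 ± 0.043 (SE; adjusted p = 8.18e-04, edgeR). Genes on the other strand cover 11.8% of the exonic bases of Atp6v0b. The main ring gene Atp6v0c was not called (0.096, adjusted p = 0.228, edgeR), but it was with library sizes as they are (0.19, adjusted p = 0.0183, edgeR) and without Veh replicate 1 (0.17, adjusted p = 0.046, edgeR). Without Veh replicate 2 it was 0.016, and 15.2% of its longest transcript is nearly identical to another locus.

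The a subunit, which forms the proton path and decides where in the cell the pump sits, has several forms. Atp6v0a1 read 80.6 and 77.9 CPM in Veh and 64.3 and 67.3 CPM in NRRA, a log2 fold change of -0.27 ± 0.045 (SE; adjusted p = 1.05e-05, edgeR). Atp6v0a2 read 89.6 and 86.1 CPM in Veh and 98.1 and 93.6 CPM in NRRA, a log2 fold change of 0.13 ± 0.041 (SE; adjusted p = 0.0099, edgeR), a call lost without Veh replicate 2 or NRRA replicate 1 (0.096 in both fits) or with DESeq2 (adjusted p = 0.073). A gene on the other strand covers 9.86% of the exonic bases of Atp6v0a2, whose count is uncertain. The a1 gene thus fell while the a2 gene was slightly higher.

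The a3 gene Tcirg1 falls outside the symbols used and was added after its values were seen. It had a log2 fold change of 0.21 (adjusted p = 0.00103, edgeR). Of a transcripts per length, a1 took 32.9% and 33.5% in Veh and 26.2% and 27.5% in NRRA, a2 went from 35.6% and 36.1% to 39% and 37.3%, and a3 from 31.4% and 30.2% to 34.5% and 35%. By the principal transcript a1 led in Veh, with 36.8% and 37.5% against 30.7% and 31.1% for a2, and the NRRA shares were 29.6% and 31% for a1 and 34% and 32.3% for a2. By that length a3 took 32.5% and 31.3% in Veh and led in NRRA with 36.1% and 36.5%, so the order of the forms depends on the length used. No form made up most of the a transcripts in any library. The renal form Atp6v0a4 read 0.147 and 0.269 CPM in Veh and 0.429 and 0.398 CPM in NRRA and was not called (0.96, 95% interval -0.24 to 2.17, adjusted p = 0.168, edgeR).

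The small e subunits were not called in the reported fit. Atp6v0e2 read 6.59 and 6.08 CPM in Veh and 7.39 and 7.47 CPM in NRRA (log2 fold change 0.23, adjusted p = 0.138, edgeR) and was called with library sizes as they are (0.32, adjusted p = 0.0385, edgeR). Atp6v0e had a log2 fold change of -0.077. Atp6v0d2, the form of d known from osteoclasts and kidney, was read 0 and 3 times in the Veh libraries and 3 and 1 times in the NRRA libraries and was not tested.

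Genes that assemble the pump or accompany it were mostly higher in NRRA. Of 12 tested accessory and assembly genes, 9 were higher in NRRA and 2 lower, where 27.9% of all genes were higher and 28.4% lower. The median log2 fold change of the 12 was 0.25. Beside them the 18 tested subunit genes had 4 higher, 5 lower and a median of -0.017, a difference that was not tested. Dmxl2 rose most, from 103 and 101 CPM in Veh to 188 and 191 CPM in NRRA (log2 fold change 0.89 ± 0.033, SE; adjusted p = 6.56e-18, edgeR). Dmxl1 (0.63), Wdr7 (0.54) and Rogdi (0.65), picked out after their values were seen, rose as well, at an adjusted p of 2.35e-10 or less (edgeR). Dmxl1, Dmxl2, Wdr7 and Rogdi encode the mammalian counterparts of the yeast RAVE complex, which rejoins V1 to V0. A gene on the other strand covers 10.2% of the exonic bases of Rogdi. The smallest value was that of Tmem199, a V0 assembly factor of the endoplasmic reticulum (-0.17, adjusted p = 0.013, edgeR). DESeq2 called 6 of the 12 higher and 1 lower, where it called 39.7% of all genes.

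**Figure D3:**
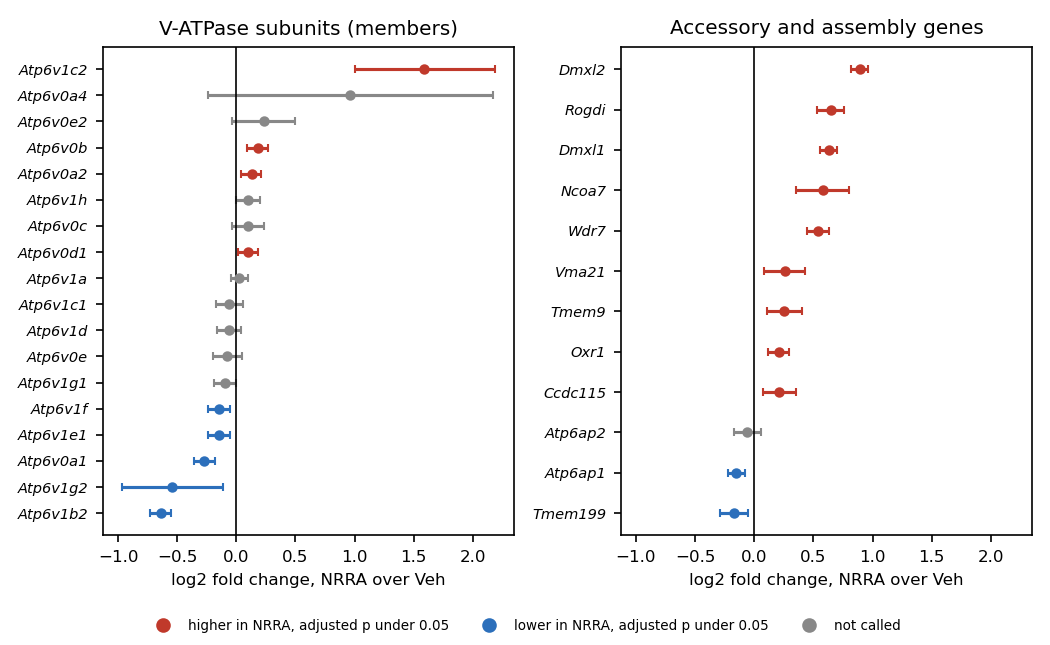
The log2 fold changes of the 18 tested V-ATPase subunit genes (left) and of 12 accessory and assembly genes (right) are plotted on one scale with 95% intervals. The subunits spread around zero (median -0.017), while 9 of the 12 genes on the right are above it, led by Dmxl2 at 0.89.

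Of the 12 cathepsin genes, all tested, 3 were higher in NRRA, 7 lower and 2 not called. The share called was 83.3%, against 56.4% of all genes. Ctsf, a broadly expressed cysteine cathepsin with an extended propeptide (chr19:4855130-4860918, plus strand), more than doubled. It read 42.8 and 41.6 CPM in Veh and 98.3 and 95.7 CPM in NRRA. The libraries of a group lie within 3 CPM of each other and far from those of the other group, with a log2 fold change of 1.2 ± 0.046 (SE; adjusted p = 8.94e-18, edgeR). It was called under each of the 11 alternatives, at 1.18 to 1.29, and no annotated gene overlaps its exons.

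The abundant cysteine cathepsins split. Ctsb, which acts both within chains and at their ends, read 468 and 467 CPM in Veh and 561 and 553 CPM in NRRA, higher in both NRRA libraries (log2 fold change 0.25 ± 0.024, SE; adjusted p = 8.50e-10, edgeR). Ctsl, an endopeptidase, read 499 and 530 CPM in Veh and 413 and 391 CPM in NRRA, lower in both (-0.35 ± 0.029, SE; adjusted p = 8.13e-11, edgeR). Ctsz, a carboxypeptidase, fell from 129 and 125 CPM to 97.3 and 95.9 CPM (-0.39 ± 0.037, SE; adjusted p = 6.93e-10, edgeR). Ctsb counts per 100 of Ctsl went from 93.8 and 88.1 in Veh to 136 and 141 in NRRA, and Ctsf counts per 100 of Ctsl from 8.58 and 7.85 to 23.8 and 24.5. The order of Ctsb and Ctsl counts thus reversed. A gene on the other strand overlaps 26.8% of the exonic bases of Ctsl, and a gene on the same strand 6.09%. Of the longest Ctsl transcript, 31.6% is nearly identical to transcripts of other genes, among them these overlapping genes. For Ctsb, 12.8% of the exonic bases lie opposite another gene. The strand setting of the counting was not given in the sources used here.

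The other cysteine cathepsins were at low levels. Ctsc, a dipeptidyl peptidase that activates granule proteases, read 5.64 and 4.87 CPM in Veh and 7.39 and 6.27 CPM in NRRA (log2 fold change 0.38 ± 0.14, SE; adjusted p = 0.0259, edgeR). Ctsw, known from natural killer and cytotoxic T cells (chr19:5465043-5468507, minus strand), read 2.84 and 2.99 CPM in Veh and 1.59 and 1.99 CPM in NRRA (-0.70 ± 0.22, SE; adjusted p = 0.00865, edgeR). Both pairs of groups are apart, but the Ctsc call was lost without Veh replicate 2 (0.28) or NRRA replicate 1 (0.26) and the Ctsw call without NRRA replicate 1 (-0.54, adjusted p = 0.0918, edgeR). DESeq2 called neither.

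Ctsh, an aminopeptidase, fell by 0.45 on the log2 scale (adjusted p = 2.84e-04, edgeR), from 14.5 and 15.3 CPM to 11.1 and 10.7 CPM. Ctsk, the collagen-degrading protease of osteoclasts, had a log2 fold change of -0.38 (adjusted p = 0.0427, edgeR), a call lost without Veh replicate 2 (-0.19, adjusted p = 0.427, edgeR) or NRRA replicate 2 (-0.31, adjusted p = 0.179, edgeR). It was also lost with DESeq2 (adjusted p = 0.266), with library sizes as they are (adjusted p = 0.121, edgeR) and without the filter on low counts (adjusted p = 0.0519, edgeR). Ctso was not called (0.19, adjusted p = 0.216, edgeR). Ctss, the cathepsin of antigen-presenting cells, read 0.847 and 0.94 CPM in Veh and 0.644 and 1.06 CPM in NRRA, ranges that overlap (-0.077, 95% interval -0.85 to 0.70). Macrophage markers were low: 7 of 12 passed the filter and none was at 0 in all libraries. They had summed levels of 41.5 and 46.1 CPM in Veh and 39.9 and 38.5 CPM in NRRA, and 1 was called, Mrc1, lower (-2.27).

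Ctsd and Ctsa both fell. Ctsd, the main aspartic protease of lysosomes, read 339 and 341 CPM in Veh and 310 and 299 CPM in NRRA (log2 fold change -0.16 ± 0.027, SE; adjusted p = 1.31e-05, edgeR). Ctsa, which also shields beta-galactosidase and neuraminidase from breakdown, read 232 and 248 CPM in Veh and 173 and 175 CPM in NRRA (-0.47 ± 0.032, SE; adjusted p = 2.54e-12, edgeR). In both genes all NRRA values are below all Veh values. A gene model on the same strand covers 34.4% of the exonic bases of Ctsd, whose count is uncertain, and genes on the other strand 17.4% of those of Ctsa.

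Of 10 cystatins and other protease inhibitors 6 were tested. Of these 1 was higher and 4 were lower, where 27.9% of all genes were higher and 28.4% lower. Cst6 was the higher gene (0.75, adjusted p = 0.0245, edgeR) and Stfa3 the lowest (-2.10, adjusted p = 0.00517, edgeR). Both are under 2 CPM in every library. The summed level of the list was 348 and 347 CPM in Veh and 280 and 283 CPM in NRRA, and its abundant genes, picked out after their values were seen, were the cysteine cathepsin inhibitors Cst3 (-0.44, adjusted p = 1.23e-10, edgeR) and Cstb (-0.067, not called) and Serpinb6a (-0.39) and Spint1 (-0.20), best known as inhibitors of serine proteases. DESeq2 called 0 of the 6 higher and 3 lower. The 10 cathepsin genes outside the symbols used, mostly of the placental cluster, did not pass the filter in these libraries.

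**Figure D4:**
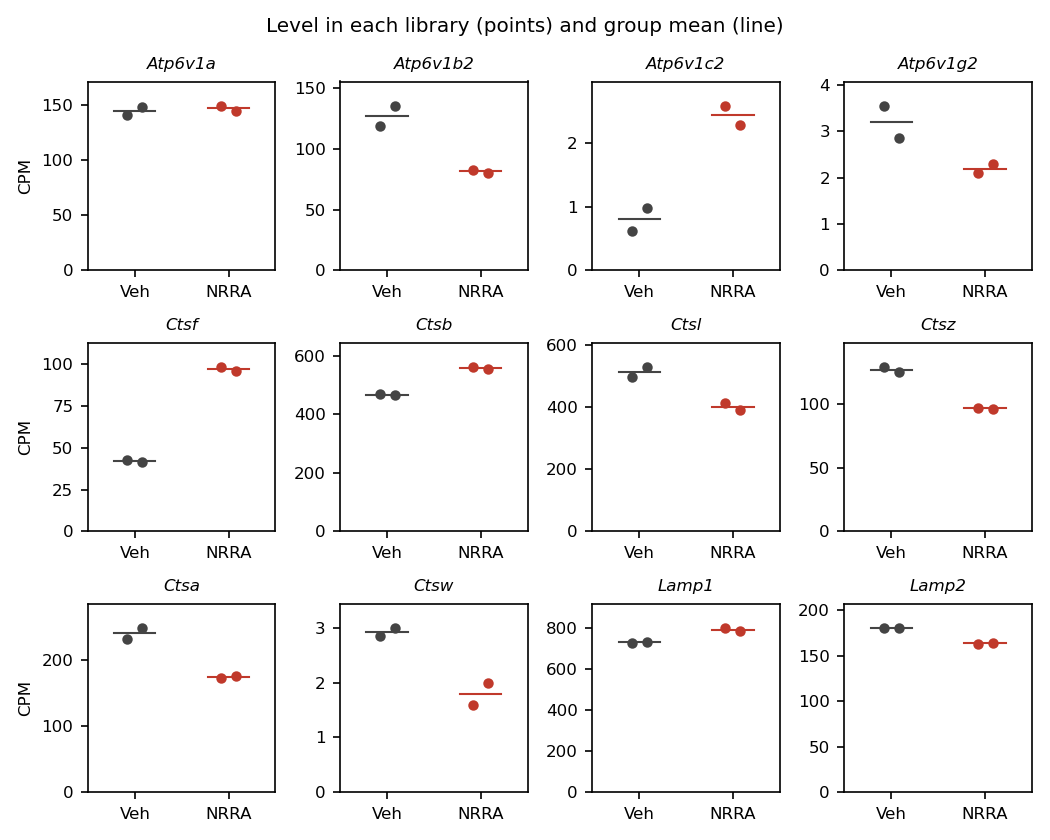
Points are the CPM of the 2 Veh and 2 NRRA libraries and lines the group means for 12 genes, each panel from 0 on its own scale. Atp6v1a overlaps between groups (141 to 149 CPM) while Atp6v1b2, Ctsl, Ctsz, Ctsa and Ctsw are lower and Ctsf, Ctsb and Atp6v1c2 higher in NRRA.

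The LAMP genes parted. Lamp1 read 730 and 733 CPM in Veh and 800 and 786 CPM in NRRA, a small rise with little spread (log2 fold change 0.12 ± 0.022, SE; adjusted p = 6.70e-05, edgeR). Lamp2, whose LAMP2A form is the receptor of chaperone-mediated autophagy, read 180 and 180 CPM in Veh and 163 and 164 CPM in NRRA, a small fall (-0.14 ± 0.031, SE; adjusted p = 3.70e-04, edgeR). With library sizes as they are Lamp2 was not called (-0.05, adjusted p = 0.175, edgeR). Genes on the other strand cover 9.31% of the exonic bases of Lamp1. Lamp1 counts per 100 of Lamp2 were 406 and 406 in Veh and 491 and 479 in NRRA, a ratio that scaling does not touch. Lamp3, known from maturing dendritic cells and lung, was read 8 and 5 times in the Veh libraries and 5 and 4 times in the NRRA libraries and was not tested.

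Levels between genes were compared as CPM per kilobase of merged exons. In Veh Lamp1 led with 273, followed by Ctsd at 145, Ctsz at 88.2, Ctsl at 79.2, Ctsb at 77.2 and Atp6v1f at 66.6. Among the V0 genes Atp6v0d1 (56) and Atp6v0b (38.8) stood highest, in the opposite order by the principal transcript (61.6 and 79.6). The lowest tested genes were Atp6v0a4 (0.0418) and Atp6v1c2 (0.368). Merged exons hold the bases of every annotated transcript, so levels depend on the length used: with the principal transcript Lamp1 (328) and Ctsd (160) still led, but Atp6v1f (101) and Ctsb (98.6) came before Ctsz (88.2) and Ctsl (83.4). In NRRA per merged exon Lamp1 (296) and Ctsd (129) led and Ctsb (92.1) came ahead of Ctsz (67) and Ctsl (62).

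**Figure D5:**
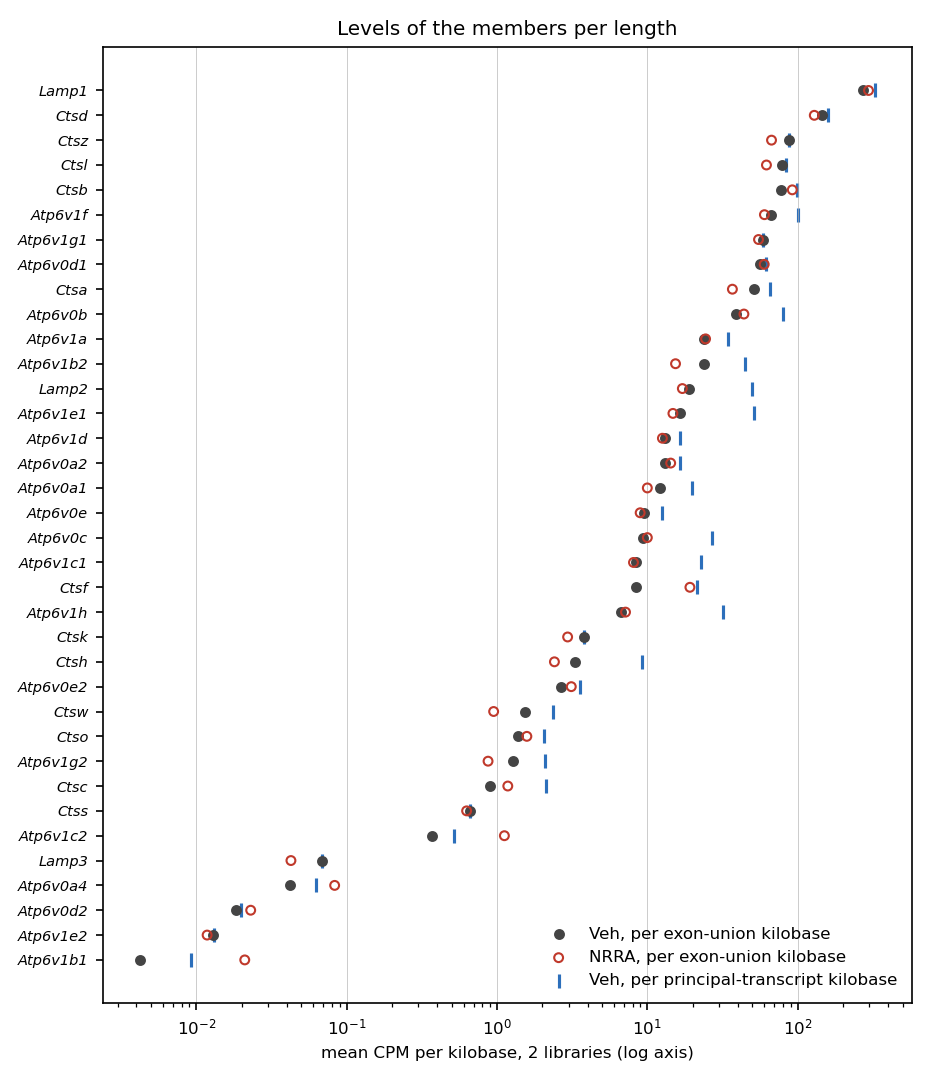
Mean CPM per kilobase (log axis) of each gene with any counts in Veh is plotted for Veh (filled) and NRRA (open) by merged exons and for Veh by the principal transcript (bars), ordered by the first. The Veh levels span from under 0.01 to 273, and filled and open circles lie close together except for Ctsf, Atp6v1c2 and the genes with few counts.

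Other lysosomal genes went both ways, as did all genes tested, of which 27.9% were higher and 28.4% lower. Of 45 hydrolases outside the symbols used, all tested, 17 were higher and 15 lower (median log2 fold change -0.056), and Acp5, an acid phosphatase, rose most (1.45). Of 29 tested membrane proteins 10 were higher and 9 lower (median -0.031), from Abcb9, a peptide transporter (1.92), to Mcoln3, a calcium channel (-1.20, under 1 CPM in each library). Among 9 genes that sort enzymes to lysosomes 2 were higher and 3 lower, from Sort1, a sorting receptor (0.85), to Gnptab, which makes the mannose 6-phosphate tag (-0.28).

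Regulators of the lysosomal programme were also mixed. Of 12 MiT/TFE factors and their regulators, 4 were higher, 4 lower and 4 not called (median log2 fold change -0.096). Over all genes tested, 27.9% were higher and 28.4% lower. Rragd, the Rag GTPase gene that MiT/TFE factors are known to induce, fell most, from 147 and 142 CPM in Veh to 34.8 and 35 CPM in NRRA (-2.05 ± 0.043, SE; adjusted p = 2.98e-23, edgeR). Fnip1, a partner of folliculin, rose most (0.85, adjusted p = 1.54e-13, edgeR). The factor genes themselves, picked out after their values were seen, went down for Tfeb (-0.69) and Tfe3 (-0.33) and up for Mitf (0.53), each at an adjusted p of 6.29e-04 or less (edgeR), while Tfec, under 1 CPM in each library, was not called (-0.80, adjusted p = 0.0985, edgeR). These are levels of RNA, and the place of the proteins in the cell was not measured here.

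Markers of other cells that use these genes were sparse. Of 7 osteoclast markers 3 were tested, with Acp5 higher and Nfatc1 lower (-0.30), and Dcstamp was at 0 throughout. Their summed levels were 36.3 and 37.6 CPM in Veh and 70.6 and 72 CPM in NRRA, of which Acp5 gave 21.3 and 21.6 CPM and 58 and 58.9 CPM. Of 9 Sertoli markers 5 were tested, with Inha higher (0.53) and Sox9 lower (-1.59) and Fshr at 0 throughout. Their median was -0.28, and their summed levels were 37.9 and 42.4 CPM in Veh and 21.2 and 21.4 CPM in NRRA. Of 6 Leydig markers 2 were tested, with Star higher (0.31) and summed levels of 7.55 and 7.96 CPM in Veh and 9.57 and 9.22 CPM in NRRA. The part of such cells in the values above was not tested.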

How the data were processed

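Poly(A) RNA of 2 Veh and 2 NRRA cultures was sequenced as stranded paired-end libraries. The authors deposited raw counts per gene; the processing notes of the submitters name STAR 2.6.1c, featureCounts 1.6.4 and build mm10, and neither the strand setting nor the annotation release is given in the sources used here. Counts were tested with edgeR 4.0.16 in R 4.3.3 (filterByExpr with a minimum count of 10, TMM, robust quasi-likelihood F-test, Benjamini-Hochberg over 20232 genes), with intervals at 95%. The 11 alternatives included DESeq2 1.42.0, other scalings, no filter, a replicate block and leaving out each library. The scripts were tested on simulated data. Library totals of 28022265 to 31604769 set the depth. The genes and lists were chosen with earlier results of these data known. Every member is named; values per library were given for called genes with an absolute log2 fold change of at least 0.5 and for the 2 highest and 2 lowest per length in each class, with others added for their role, and from each list the largest and smallest called change, of which 1 is not reported here. Lengths, positions and overlaps came from GENCODE M21 (99.5% of identifiers matched) and promoters from RefSeq. Near-identity of each gene's longest transcript to transcripts of other genes was found with BLAST 2.17.0 (95% identity over 100 bases).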

Additional observations from a re-analysis of the deposited data

How the results depend on the processing

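With 2 libraries a group, several small changes depended on single libraries, in scarce and abundant genes. Of 352 values of tested genes under the 11 alternatives, 297 kept direction and call, 42 lost the call, 7 gained one and 6, none of them called in the reported fit, changed sign. Of the 21 called genes 7 kept the call under every alternative and 0 changed direction. Of 32 genes DESeq2 called 5 higher and 8 lower, glmTreat 2 and 6, and library size alone left 8 lower with a median log2 fold change of 0.021. Leaving out a library gave 6 to 8 higher, 9 to 12 lower and a median of -0.088 to -0.035. The sign changed with library size alone for Atp6v0e (0.012), Atp6v1d (0.029), Atp6v1c1 (0.032) and Ctss (0.012), and when 1 library was left out for Ctss (-0.47 to 0.25, above zero without NRRA replicate 1) and Atp6v1a (-0.011 to 0.06, below zero without Veh replicate 1). Calls lost without 1 library, beside those given above, were Atp6v1f without Veh replicate 2 (-0.11) or NRRA replicate 1 (-0.14), Atp6v1e1 without NRRA replicate 1 (-0.14), and Atp6v0d1 without Veh replicate 1 (0.096) or Veh replicate 2 (0.093). In the other gene lists DESeq2 left 1 accessory and assembly gene lower, 11 hydrolases higher and 9 lower, 1 sorting gene higher, and 0 inhibitors, Sertoli or Leydig markers higher and 0 osteoclast markers lower. Replicates are numbered by title, while other labels number the Veh libraries 2 and 3, so which libraries share a number is ambiguous. The title numbers did not pair the libraries (correlation of deviations -0.0106), and a replicate block gave 9 higher, 13 lower and a median of -0.069. The causes of these shifts were not tested. Genes that did not pass the filter on low counts were not assessed in the reported fit, and those under 3 counts could not be at this depth.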
